A study of Sus scrofa with 12 samples.

Results

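The small RNA files of this pig testis study list, beside the named miRNAs, loci that carry no miRNA name and are called by a chromosome and a number, such as chrX_49513. The loci described here are those on placed chromosomes with at least 1 deposited RPM (a read count scaled to the sum over all listed entries) in at least 3 of the 6 small RNA libraries. There were 109 such loci, out of 281 unnamed loci on placed chromosomes and 765 distinct names in all. They were thus selected on abundance, which is given as a description. Both groups were testis of adult male pigs aged 12 months, 3 libraries of Western Duroc and 3 of Large white, both commercial breeds. A further breed in the series' design, Diannan small-ear, was not analysed here. Since no label states that every library is from its own animal, p-values cover the variation among libraries, some of which may be technical.

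A miRNA is a short RNA cut from a hairpin precursor that guides Argonaute proteins to partly complementary messenger RNAs. Small RNA reads that stack up on a predicted hairpin can reveal a candidate miRNA gene that no database has named, but such a candidate is a prediction and not a proven gene. The testis makes many miRNAs in its germ cells, and the X chromosome of mammals carries several miRNA clusters, some of which are expressed mainly in testis and change quickly between species. Position within the chromosome and sequence were not analysed here, so no locus could be matched to a miRNA of another species.

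The tissue label was checked on miRNAs. miR-202-5p, a gonadal miRNA, had 9261 to 12035 normalised RPM (scaled by TMM, a method that sets the libraries to a common level by the bulk of their entries). miR-34c, of meiotic and later male germ cells, was the only 1 of 5 listed germ cell miRNAs found under its name, with 2774, 15860 and 4156 normalised RPM over Duroc libraries 1 to 3 against 12227 to 15958 in Large white. Of 4 miRNAs listed for other tissues, miR-208b of striated muscle had no read in any library and miR-124a of brain at most 1.68 normalised RPM. miR-499-5p, also of striated muscle, had 223 to 366 in the 6 libraries, and miR-122-5p of liver 9.50 to 52.8. Library totals ran from 1481386 to 13209412 reads, so that 3 reads, taken as the floor, stood for 0.227 to 2.03 RPM; such floors cover counting error only. In Duroc library 1 miR-143-3p, known from smooth muscle, held 48.6% of listed reads against 16.8% to 33.2% in the other 5, and the TMM factor of that library was 0.464 against 0.792 to 1.36 elsewhere. Normalised RPM is therefore not a share of a library's reads, since a factor below 1 raises every entry of that library. The 6 smooth muscle and stroma miRNAs found under the listed name, of 7, summed to 201950 to 1127660 normalised RPM in Duroc and 146359 to 264941 in Large white. miR-143-3p made up 94.6% to 98.4% of each sum. Without it the other 5 summed to 17863, 6477 and 9761 over Duroc libraries 1 to 3, against 7277 to 9619 in Large white. The seventh, miR-214, is given as its arms, of which miR-214-3p had 242 to 730 and miR-214-5p 74.5 to 314, highest in Duroc library 1. The 6 listed blood miRNAs summed to 6072, 4329 and 2143 normalised RPM over Duroc libraries 1 to 3, against 1893 to 4297 in Large white. Among them miR-486 had 279 in Large white library 2 and 37.6 to 69.3 elsewhere. The 3 epithelium miRNAs found, of 5 listed, summed to 126, 185 and 393 in Duroc and 203 to 300 in Large white. The part of these shifts in the results below was not tested. In bulk tissue, fewer cells of a type and less RNA per cell cannot be told apart.

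The unnamed loci were mostly scarce. Their median of mean RPM over the 6 libraries was 6.84, against 64.3 for the 300 named miRNAs that met the same minimum. Under 10 RPM lay 63 of the 109 loci, and 5 reached 1000 RPM, as did 51 of the named miRNAs. All 109 together took 0.600%, 2.35% and 1.40% of reads over Duroc libraries 1 to 3, and 2.52%, 2.20% and 1.97% over Large white libraries 1 to 3. The minimum was met in all 6 libraries by 62 loci, and 53 had at least 10 reads in each. At least 1 library without a read was seen for 18 loci, none of which had a mean above 4.74 RPM. Each library held reads of 103 to 108 of the loci, and no locus was without reads in a whole breed. Just inside the minimum lay chr11_6408 and chr1_2325, whose value in the library that decides it was 1.09 RPM each. Just outside lay chr6_31299 and chr3_24111, with 0.98 RPM each. Of the 172 loci that did not meet it, 105 had no read in at least 3 libraries.

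**Figure D1:**
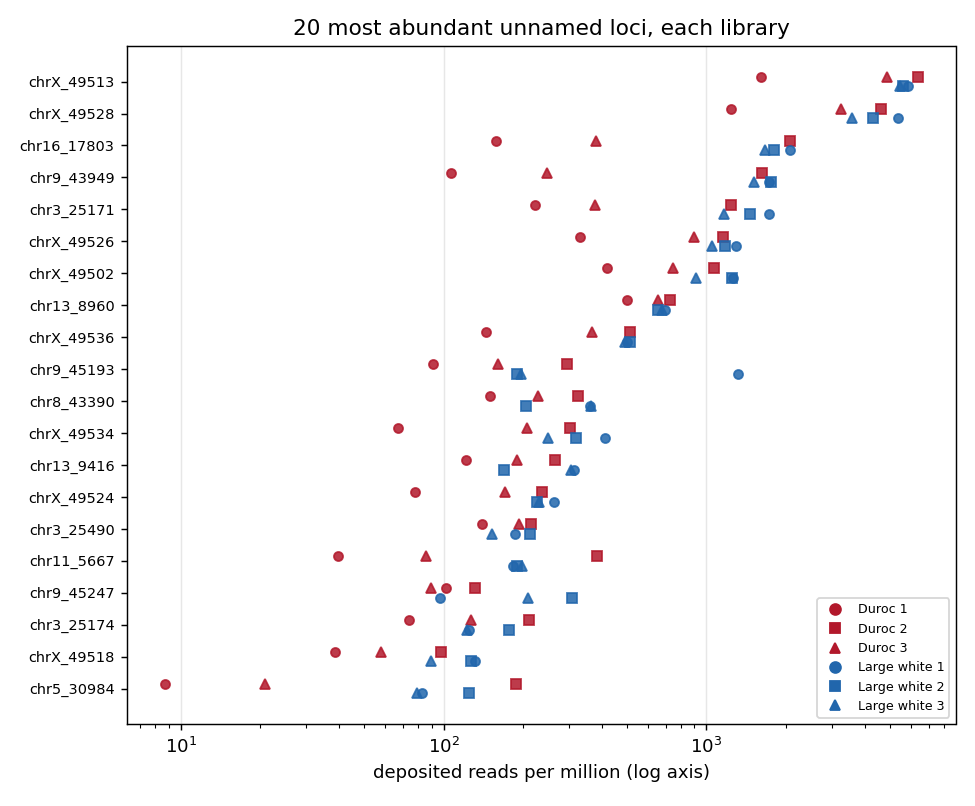
Deposited RPM (log axis) of the 20 most abundant unnamed loci in each library; red marks are Duroc, blue marks Large white, and the marker shape gives the library number. Duroc library 1 lies lowest for most of these loci on this scale, for example at 1610 RPM for chrX_49513, and Large white library 1 stands apart at chr9_45193 with 1317 RPM.

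The X chromosome held the most abundant of these loci. It carried 20 of the 109 loci (18.3%), 32 of the 281 listed (11.4%), and 30 of the 216 precursors of tested named miRNAs that a RefSeq table of the assembly Sscrofa11.1 places on a chromosome (13.9%). In abundance it weighed more, with 63.7% of the summed mean RPM of the 109 loci. Chromosome 9 followed with 9.68%, chromosome 3 with 8.04%, chromosome 16 with 7.81% and chromosome 13 with 5.42%. Of the loci listed on X, 62.5% met the minimum, as did 75.0% of 12 on chromosome 9. On chromosome 14 only 1 of 19 met it, and on chromosome 12 none of 8. The shares are descriptions, since the minimum itself uses abundance. No locus was named after chromosome Y or the mitochondrial genome.

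The most abundant locus of each chromosome outside X varied over a wide range of mean RPM. It was 1363 for chr16_17803, 1162 for chr9_43949, 1032 for chr3_25171, 651 for chr13_8960, 272 for chr8_43390 and 180 for chr11_5667. It lay between 20.6 and 84.4 for chr5_30984, chr6_32302, chr1_2013 and chr4_27487. On the remaining chromosomes it was at most 10.1, the value of chr2_21776, and it reached 9.85 for chr18_19805, 3.57 for chr10_4945, 3.27 for chr15_15839, 3.20 for chr17_18536, 1.15 for chr7_37730 and 1.04 for chr14_15519. Single loci thus carried most of the abundance of chromosomes 16, 9, 3 and 13.

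**Figure D2:**
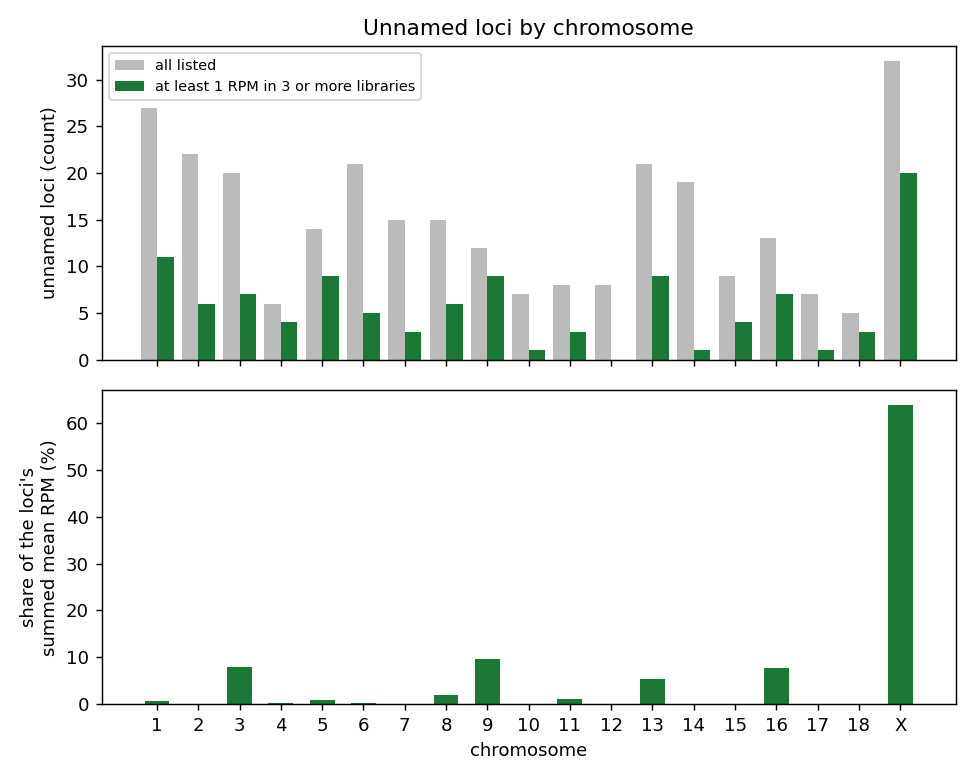
Upper panel: number of unnamed loci per chromosome, all listed (grey) and those with at least 1 RPM in at least 3 libraries (green). Lower panel: share of the 109 loci's summed mean RPM on each chromosome (percent). X holds 20 of the 109 loci and 63.7% of their abundance.

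Nearly all of the X signal came from 12 loci with neighbouring numbers, chrX_49483 to chrX_49536. The numbers run upward from chromosome to chromosome without overlap in the files, but what they mean within a chromosome is not given in the sources used here, so close numbers are not taken as close positions. Of 13 loci listed in this range of numbers, 12 met the minimum, and they held 63.5% of the summed mean RPM of the 109 loci. The range was singled out after its values were seen. chrX_49513 was the most abundant of all the 109, at place 20 among the 421 entries tested, named miRNAs included. Its reads numbered 21273, 22128 and 44503 over Duroc libraries 1 to 3, against 8635, 13935 and 8717 over those of Large white. On the normalised scale these were 3674, 5459 and 6555 RPM in Duroc and 4836, 4784 and 5250 in Large white, so that the Duroc libraries lay on both sides of Large white. chrX_49528 had 2828, 3946 and 4379 normalised RPM in Duroc and 4458, 3665 and 3456 in Large white, again with overlap. The next on X were chrX_49526, with means of 985 ± 228 and 1031 ± 37.2 normalised RPM, chrX_49502, with 957 ± 43.3 and 999 ± 103, and chrX_49536, with 421 ± 82.3 and 440 ± 29.0 (Duroc and Large white, SD, n = 3 each). Further down, chrX_49524 had 178, 203 and 231 normalised RPM over Duroc libraries 1 to 3, against 218, 194 and 222 over those of Large white. chrX_49509 spread more, with 51.8, 81.9 and 119 for Duroc and 72.2, 68.3 and 42.2 for Large white. chrX_49483 was high in a single library, with 23.9 in Duroc library 2 and 3.28 to 8.43 in the other 5. The least abundant, chrX_49512, had a mean of 1.20 RPM and no read in Large white library 3.

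None of the 12 X loci separated the breeds. No value in 1 breed lay wholly above or below the other, and their edgeR p-values before adjustment ran from 0.231 to 0.838. Their median log2 fold change (Duroc minus Large white) was -0.058, and -0.60 when reads were scaled to the library total, against medians of 0.06 and -0.56 for all 421 entries on these scales. On both scales their median was thus the lower of the pair, by a larger step with TMM. Their libraries lay close together in Large white, where the highest exceeded the lowest by a median of 1.25-fold, against 1.69-fold in Duroc. Duroc library 1 was the lowest for several of them, such as chrX_49534 with 153 normalised RPM against 241 to 341 in the other 5. With TMM, Duroc libraries 1 and 3 were both below the other 4 in 1 of the 12 (8.33%), against 18.1% of all entries. In deposited RPM this held for 10 of the 12 (83.3%), against 52.0% of all entries, so it depends on the scaling.

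The other 8 X loci bore numbers from 48453 to 48827 and were less abundant. chrX_48453 was the most abundant of them, with a mean of 29.9 RPM, and the others lay between 1.27 and 4.98 RPM. At each of the 8 the breeds overlapped on the normalised scale, while with library total scaling chrX_48519 was lower in every Duroc library.

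The 3 most abundant autosomal loci were low in Duroc libraries 1 and 3. With TMM scaling the next in abundance, chr13_8960 and chr9_45193, did not share this, and chr13_8960 was highest in these libraries. In deposited RPM both were lowest there. chr13_8960 then had 498.8 and 654.6 RPM in Duroc libraries 1 and 3 against 655.3 to 724.1 elsewhere. chr9_45193 had 91.2 and 162 against 190 to 1317. chr16_17803 had 361, 1781 and 511 normalised RPM over Duroc libraries 1 to 3, against 1728, 1542 and 1610 over Large white. chr9_43949 had 244, 1390 and 334 in Duroc and 1437, 1494 and 1459 in Large white. For both, Duroc library 2 was at or near the level of Large white and Duroc libraries 1 and 3 far below it. chr3_25171 had 509, 1060 and 506 in Duroc and 1430, 1244 and 1129 in Large white. miR-34c, given above, was low in the same libraries. They were also the deepest, with 13209412 and 9161673 reads against 1481386 to 3473206 elsewhere. Their miR-143-3p shares were the highest (48.6% and 33.2%, against 16.8% to 26.5%) and their TMM factors the lowest (0.464 and 0.792, against 1.15 to 1.36). The part of any of these in the pattern was not tested. Neither locus of chromosomes 16 and 9 passed, with log2 fold changes of -0.88 (SE 0.54, edgeR adjusted p = 0.409) and -1.16 (SE 0.59, edgeR adjusted p = 0.378). The spread within Duroc was almost as large as its mean, at 884 ± 780 for chr16_17803 and 656 ± 637 for chr9_43949, against 1627 ± 94.1 and 1463 ± 28.9 for Large white (SD, n = 3 each). With Duroc library 2 alone, chr16_17803 had a log2 fold change of 0.16.

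**Figure D3:**
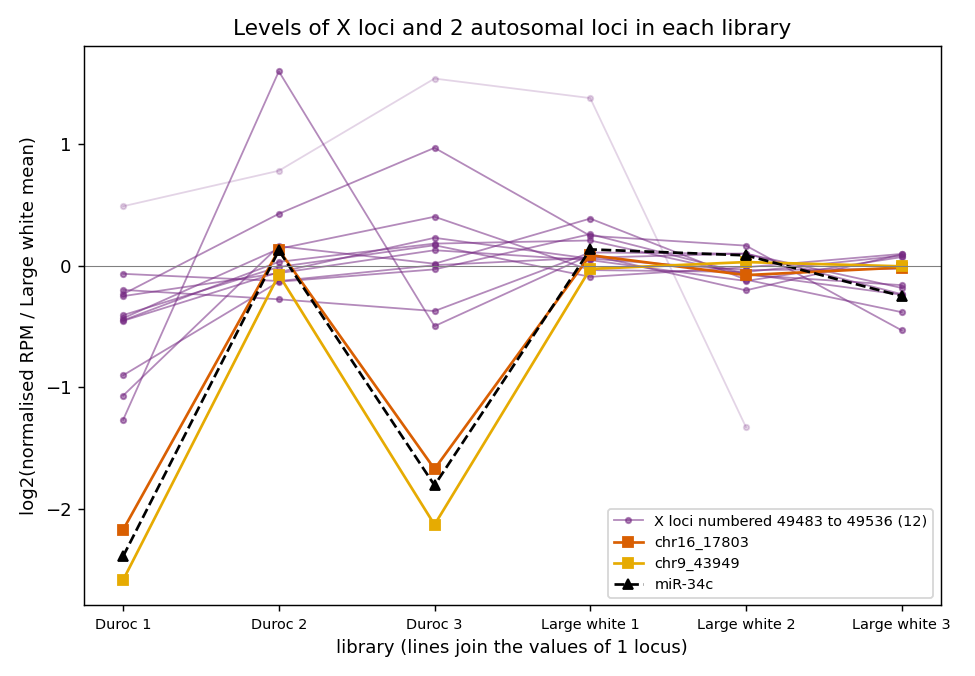
Log2 of the normalised RPM over the Large white mean, in each of the 6 libraries, for the 12 X loci numbered 49483 to 49536 (purple, the faint line being chrX_49512, which has under 10 reads in some libraries and no point where it has no read), chr16_17803, chr9_43949 and miR-34c. In Duroc libraries 1 and 3 the autosomal loci and miR-34c lie below the X loci, and in Duroc library 2 they lie near 0.

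Other loci shared this pattern. In 31 of the 109 loci (28.4%), Duroc libraries 1 and 3 were both below the other 4 libraries with TMM scaling, against 18.1% of all 421 entries and 14.3% of the named miRNAs. Scaled to the library total, it was 58 of 109 (53.2%) against 52% of all entries, so over all 109 loci the excess is seen with TMM only. The opposite, with both above the other 4, held for 10 loci (9.17%) with TMM, against 20.2% of all entries. Among loci with at least 10 reads in every library the low pattern was seen with TMM in 19 of 53 and, for named miRNAs, in 40 of 231. With library total scaling it was seen in 38 of these 53 (71.7%) and 142 of the 231 (61.5%), so an excess remained there. Among these loci, chr3_25763 had 6.56, 85.6 and 24.6 normalised RPM in Duroc and 137, 70.7 and 113 in Large white. chr5_30984 had 19.9, 162 and 28.1 in Duroc and 68.9, 107 and 76.5 in Large white, so that Duroc library 2 was the highest of all. chr11_5667 had 90.5, 330 and 115 in Duroc and 152, 162 and 191 in Large white. chr16_17805, whose number is near that of chr16_17803, had 7.94, 37.3 and 8.84 for Duroc and 29.1, 20.6 and 30.7 for Large white, so it too was low in Duroc libraries 1 and 3. chr1_1513 had no read in Duroc libraries 1 and 3, 28 reads in Duroc library 2 and 5, 4 and 7 in Large white. Duroc libraries 1 and 3 were the deepest, and 3 reads there stood for 0.227 and 0.327 RPM, below the 1.61 to 8.06 deposited RPM of this locus in the other 4.

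No unnamed locus passed edgeR's test between the breeds, and neither did any of the 421 entries (0% called). Before adjustment, 8 of the 109 loci had a p-value under 0.05, or 7.34%, against 14.3% of all entries. Of the 8, 4 were higher in Duroc (7.84% of all entries were) and 4 lower (6.41%). Breed values did not overlap in 16 loci, or 14.7%, against 23.3% of all entries, with Duroc above in 7 (11.9% of all entries) and below in 9 (11.4%). In deposited RPM, scaled to the library total, there were 11 such loci (10.1%), against 24.2% of all entries, with Duroc above in 2 (2.61%) and below in 9 (21.6%). On either scale the share was below the background of all entries. The median log2 fold change was -0.060, against 0.06 for all entries and for the named miRNAs, with 51 loci positive and 58 negative. Among the 62 loci at 1 RPM or more in all 6 libraries it was -0.05. A fitted difference of over 2-fold was seen in 32 of the 109 loci (29.4%), against 19.5% of all entries. Among those with at least 10 reads in every library it was 6 of 53 (11.3%), against 10.4% of 231 named miRNAs. A single locus, chr6_33211, reached 1 RPM in Duroc libraries only and therefore had to differ. It is counted among the 4 loci higher in Duroc before adjustment and the 7 with Duroc above.

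**Figure D4:**
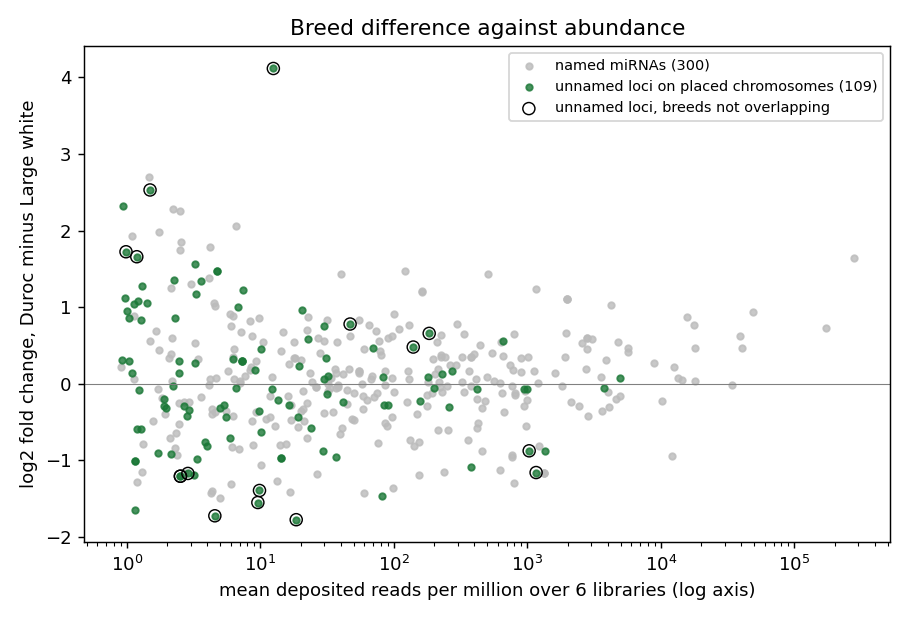
Log2 fold change, Duroc minus Large white (vertical axis), against mean deposited RPM (log axis) for the 109 unnamed loci on placed chromosomes (green) and the 300 named miRNAs (grey). Rings mark the 16 unnamed loci whose breeds did not overlap on the normalised scale; most of them lie under 20 RPM, and chr3_26304 is highest at 4.12.

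Of the loci higher in Duroc, chr3_26304 had the smallest p. It had 113, 189 and 66 reads in the Duroc libraries and 3, 4 and 2 in the Large white libraries. On the normalised scale these were 19.5, 46.6 and 9.72 RPM against 1.68, 1.37 and 1.20, so that the lowest Duroc value lay well above the highest of Large white. The Large white reads are at or near the floor, so the log2 fold change of 4.12 (SE 0.71, edgeR adjusted p = 0.0974) is imprecise. DESeq2 called 3 of the 109 loci, which is 4.35% of those it gave an adjusted p, against 4.13% of all such entries. This locus was among the 3 (DESeq2 adjusted p = 5.93e-05), and edgeR called it without Duroc library 2 (adjusted p = 0.00378) or 3 (adjusted p = 0.0284). Without 1 of the Large white libraries its edgeR adjusted p was as high as 0.408.

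The other loci higher in Duroc were scarce or overlapped nearly. chr6_33211 had 17, 15 and 15 reads in Duroc but 1 in each Large white library, with a log2 fold change of 2.53 (SE 0.70, edgeR adjusted p = 0.193). It met the minimum through Duroc libraries only, so it had to differ and these values are a description. For chr5_29079 the Duroc libraries held 15, 8 and 12 reads against 2, 1 and 1 in those of Large white (edgeR adjusted p = 0.340). chr3_25490 was better measured, with 320, 184 and 262 normalised RPM in Duroc and 156, 182 and 148 in Large white. Its breeds were separated only by the step from 182 to 184, and its log2 fold change was 0.66 with TMM but -0.065 with library total scaling. The remaining loci with Duroc wholly above, given because of that, were chr3_25174, chr9_43752 and chr15_16930. chr3_25174 had 169, 181 and 172 normalised RPM for Duroc and 104, 152 and 118 for Large white, a narrow range in Duroc (edgeR adjusted p = 0.378). With library total scaling the breeds overlapped at each of these 3 loci. chr15_16930 rested on at most 14 reads in a library. chr8_42863 had 7.08, 11.8 and 10.6 normalised RPM in Duroc and 3.36, 7.21 and 3.61 in Large white, which overlap (edgeR adjusted p = 0.353). chr13_8960, the eighth most abundant locus, had 1138, 620 and 883 in Duroc and 576, 559 and 656 in Large white. The fitted log2 fold change was 0.56 with TMM and -0.16 with library total scaling.

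Of the 9 loci with Duroc wholly below Large white, the 3 of smallest p were low in Duroc library 2 as well. chr5_30680 had 9.67, 9.87 and 4.12 normalised RPM in Duroc and 36.4, 17.5 and 27.1 in Large white, at a log2 fold change of -1.77 (SE 0.45, edgeR adjusted p = 0.193). chr3_23861 had 3.80, 5.43 and 4.42 in Duroc and 18.5, 11.3 and 10.2 in Large white. The fit gave it -1.55 (SE 0.41), at the same edgeR adjusted p. chr16_17902 had 1.38, 1.97 and 2.50 in Duroc and 7.84, 4.81 and 7.23 in Large white, on 8 to 17 reads per library. In all 3 of these the breeds were apart with library total scaling as well. chr5_30680 and chr3_23861 were called by DESeq2 (adjusted p = 0.0257 and 0.0301). For chr9_43949 and chr3_25171, given above, and for chr18_19805, the gap rested on a small step between Duroc library 2 and the lowest Large white library. Scaled to the library total, the breeds overlapped at all 3 of these. The other 3 of the 9, chr4_28384, chr15_16517 and chr15_17264, had 4 to 14 reads per library, and their breeds were apart with library total scaling too. chr18_19805 had 1.73, 10.1 and 3.09 normalised RPM in Duroc and 17.4, 10.3 and 10.8 in Large white.

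**Figure D5:**
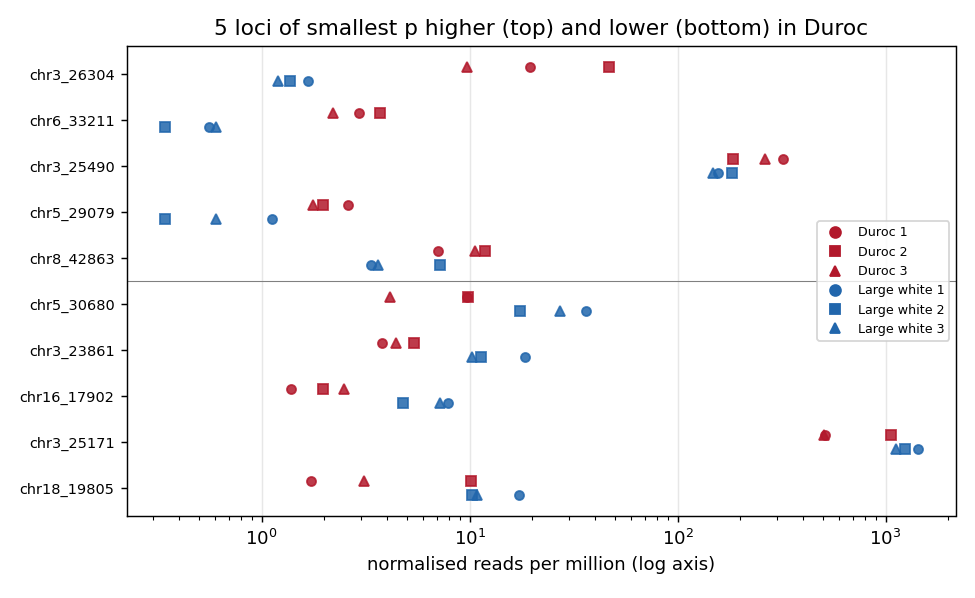
Normalised RPM (log axis) in each library for the 5 loci of smallest p higher in Duroc (above the line) and the 5 lower in Duroc (below it); red marks are Duroc, blue marks Large white, shapes give the library number. chr3_26304 and chr5_30680 show clear gaps between the breeds, while chr3_25490 and chr18_19805 nearly touch.

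The calls depended on Duroc library 2. Without it edgeR called 16 of the 109 loci, 3 higher and 13 lower in Duroc, which is 14.7% against 15.2% of all 421 entries (6.65% higher and 8.55% lower). The smallest adjusted p was that of chr9_43949, with a log2 fold change of -2.34 (SE 0.24, edgeR adjusted p = 0.000586). chr16_17803 followed with -1.90 (SE 0.24, edgeR adjusted p = 0.00127), and chr3_25171 with -1.32 (SE 0.22, edgeR adjusted p = 0.00378). miR-34c was then low in both remaining Duroc libraries, which were also the deepest and had the highest miR-143-3p shares. The part of these features in the calls was not tested. With Duroc library 2 alone the spread comes from Large white only, so calls of that fit are not given. In that library chr3_26304 had 46.6 normalised RPM, its highest value, against 1.20 to 1.68 in Large white.

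Large white library 1 stood apart at some loci, which were chosen here after their values were seen. chr9_45193, the tenth most abundant locus, had 1951 reads there and 471 and 314 in the other Large white libraries. On the normalised scale it had 1093 RPM against 162 to 254 in the other 5 libraries. chr8_43197 had 94.1 there, against 10.9 to 45.6 elsewhere. chrX_48453 was low in that library, with 7.28 against 25.1 to 48.9, and chr9_43752 likewise, with 14.0 against 50.8 to 89.5. Among loci with at least 10 reads in every library, the highest Large white library exceeded the lowest by over 2-fold in 15 of 53, against 16 of 231 named miRNAs. The 53 had a median of 31.9 RPM and the 231 of 176 RPM, so depth differs between these sets. In Duroc the same was seen in 26 of 53 and 86 of 231. Some abundant loci varied widely within both breeds. chr9_45247 had 233, 113 and 121 normalised RPM for Duroc and 80.1, 262 and 202 for Large white. chr13_10986 had 141, 69.1 and 73.6 for Duroc and 48.2, 117 and 102 for Large white, so that both were lowest in Large white library 1. Other loci, also chosen after their values were seen, were highest in Duroc library 1, such as chr1_529 with 26.3 against 3.36 to 9.43 elsewhere and chr10_4945 with 11.2 against 1.81 to 5.01.

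Some loci gave the same reads under several names and are not separate measurements. Identical counts in all 6 libraries were found in 5 groups with 11 loci, so that the 109 names stand for 103 distinct profiles. The groups were chr16_17819, chr16_17821 and chr16_17823, where the Duroc libraries held 44, 37 and 60 reads and the Large white libraries 10, 18 and 15, chr8_41440 and chr8_41441, chr1_1997 and chr1_4066, chr15_16517 and chr15_17264, and chr7_37730 and chr7_40687. None of the 11 shared its counts with a named miRNA. A further 2 pairs, looked for after the values were seen, were nearly equal. chr1_1610 had 0.910 to 1.04 times the reads of chr1_2013 in every library. chr13_9416 had 0.812 to 0.874 times the reads of chr8_43390, although these are assigned to different chromosomes. Of the loci whose breeds did not overlap, only chr15_16517 and chr15_17264 belonged to such a group, so that these 16 names stood for 15 profiles.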

How the data were processed

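Per the labels' protocols, small RNA libraries were made with a TruSeq small RNA kit and read single-end. The submitters' processing notes name Bowtie 1.3.1, STAR 2.7.10a and Salmon 1.9.0 and the build susScr11; which of them made these counts is not given in the sources used here. Deposited files hold whole read counts per mature entry and precursor, and RPM, those counts scaled to the sum over all entries. Of a name on several lines the one with the highest mean count was kept. The RNA libraries were not used.

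Entries with an RPM of 1 in at least 3 of 6 libraries were tested in R 4.3.3 with edgeR 4.0.16 (quasi-likelihood test, TMM, breed as the only term), two-sided, with Benjamini-Hochberg adjustment over all 421 entries and a threshold of 0.05. A standard error is approximated by dividing the log2 fold change by the root of edgeR's F. Normalised RPM uses TMM-scaled totals. The code was tested on simulated data. DESeq2 1.42.0, limma 3.58.1, other scalings, filters and left-out libraries were alternatives. Loci described singly were the 10 most abundant, the 5 of smallest p in each direction, the most abundant of each chromosome, those nearest the minimum and those with shared counts; others are named as chosen after their values were seen, as were the loci given for the pattern of Duroc libraries 1 and 3 and those called without Duroc library 2. The members and lists were chosen with earlier results of these data known.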

Additional observations from a re-analysis of the deposited data

How the results depend on the processing

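Against 0 loci called, DESeq2 called 3 (4.13% of all entries), edgeR without the filter 1 (0.785%) and the replicate block 1 (0.238%). Leaving out 1 library gave 0 to 16 (0% to 15.2%), and the other scalings, filters and limma gave 0 (0%). Calls with Duroc library 2 alone are not given, since that fit holds a single Duroc library. In DESeq2, 40 of the 109 loci had no adjusted p. Its 3 calls were 4.35% of the loci that had one, and its 4.13% likewise covers only entries with an adjusted p. Against 16 loci without overlap, requiring 1 RPM in all 6 libraries gave 8 of 62 (23.4% of all entries), Duroc library 2 alone 62 of 109 (60.6%), and leaving out 1 library 23 to 49 (28.7% to 48.7%), where fewer libraries make separation easier. Against a median log2 fold change of -0.060, library total scaling gave -0.52 and limma on log2(RPM + 1), + 0.5 and + 0.1 gave -0.56, -0.67 and -0.72; leaving out 1 library gave -0.19 to 0.10. Against 109 loci, a minimum of 5 RPM gave 64 and 1 RPM in all 6 libraries 62. The direction of chr3_25490 (-0.065, and -0.022 with each limma pseudocount) and chr13_8960 (-0.16, and -0.13 with each) turned with library total scaling and with limma, and that of chr16_17803 (0.16) with Duroc library 2 alone. limma was run on deposited RPM, scaled to the sum over all entries. Library total scaling in edgeR used the sum after repeated names were dropped. These scalings are of 1 kind but not identical, with 11 and 12 loci without overlap, and are not separate alternatives to TMM. The cause was not tested. Of 13 loci followed over the alternatives (the 5 of smallest p in each direction, chr9_43949, chr16_17803 and chr13_8960), the other 10 kept their direction under every alternative that could be run for them. Among these 10 is chr6_33211, which met the minimum through Duroc libraries only. The replicate numbers name different breeds' samples and do not pair them: the deviations of same-numbered libraries correlated at -0.24, -0.13 and -0.06. The 1 locus called with the block was chr3_26304 (adjusted p = 0.0235). With 3 reads standing for up to 2.03 RPM, loci near 1 RPM rest on single reads in Large white.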
